A study of Mus musculus with 12 samples.

Results

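The 9 genes described here encode enzymes that turn farnesyl diphosphate into squalene and squalene into cholesterol: Fdft1, Sqle, Lss, Cyp51, Msmo1, Nsdhl, Hsd17b7, Sc5d and Dhcr7. They were picked by gene symbol, with earlier results of these data known. All 9 were found among the 24421 gene symbols of the deposited read counts. The cells were B16F10, a mouse melanoma line that grows as pigmented tumour cells in culture. They received DMSO vehicle (control), 25 nM DAC for 72 h, SFN for 48 h, or both (DAC+SFN), with 3 replicates in each of the 4 groups, described in the study as independent biological repeats. DAC (5-aza-2'-deoxycytidine) is a nucleoside analog that blocks the maintenance of DNA methylation, and SFN (sulforaphane) is an isothiocyanate from cruciferous vegetables. The SFN dose was 5 µM in the study's methods and in the labels of the combination treatment, while the labels of the SFN single treatment give 5 nM, which makes the labelled doses of these groups unequal. All 12 libraries come from 1 cell line, so the values describe that line.

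Cholesterol synthesis starts from acetyl-CoA and runs through mevalonate to farnesyl diphosphate, which also feeds other products. Fdft1 makes the first step that is committed to sterols, Sqle and Lss close the sterol ring system, and the later enzymes remove methyl groups and move or reduce double bonds. When sterols in the endoplasmic reticulum are low, the escort protein SCAP lets the transcription factor SREBP2 leave for the nucleus, where it turns on most genes of this route. INSIG proteins hold SCAP back when sterols are plentiful.

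Between 15880957 and 27291436 reads per library were counted on genes. Values are given as CPM, the counts of a gene per 1e+06 counts of the library after TMM scaling, and each member had at least 737 counts in every library. All 7 melanocytic markers examined were present, none below 301 CPM in any library and Tyrp1 at up to 13400 CPM. The 4 leukocyte, 2 keratinocyte and 2 endothelial markers had at most 11 counts in any library. Among fibroblast markers Dcn and Lum had at most 10 counts, while Col1a1 averaged 71.9, 18.6 and 290 CPM over replicates 1, 2 and 3.

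SFN lowered 8 of the 9 transcripts. Against control, the SFN single treatment lowered Lss by 44.6%, Nsdhl by 43.7%, Cyp51 by 40.0%, Fdft1 by 39.0%, Msmo1 by 37.8%, Sc5d by 35.7%, Sqle by 32.4% and Dhcr7 by 21.7%. Hsd17b7 was the member that did not pass the test, with a log2 fold change of -0.098 (95% interval -0.24 to 0.043). The test was edgeR's quasi-likelihood F-test with the replicate number as a block, and genes under 0.05 after Benjamini-Hochberg adjustment were called, which took in 13.9% of the 11638 genes tested in either direction and 5.65% of them as lower. None of the 9 changed more than 2-fold as well, against 1.28% of all genes tested. Without the replicate block, 0 of the 9 and 23 of all genes were called. In RNA from a whole culture, fewer cells that express a gene and less RNA per cell cannot be told apart.

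Fdft1 (squalene synthase, Entrez 14137) joins a pair of farnesyl diphosphates into squalene. It lies in mm10 on chromosome 14, 63145150 to 63179578, minus strand. Fdft1 was at 137, 105 and 123 CPM in control replicates 1, 2 and 3, 133, 89.1 and 117 after DAC, 92.3, 50.5 and 84.8 after SFN and 77.4, 57.0 and 84.3 after the combination. All SFN and DAC+SFN libraries lay below all control libraries, and replicate 2 was the lowest of its group each time. The log2 fold change with SFN was -0.71 (SE 0.088, adjusted p = 1.11e-04, edgeR).

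Sqle (squalene epoxidase, Entrez 20775) adds oxygen to squalene in a rate-limiting step of the route. It lies on chromosome 15, 59315077 to 59331192, plus strand. Sqle was at 325, 212 and 275 CPM in control, 290.2, 178 and 256 after DAC, 234, 125 and 199.6 after SFN and 182, 134 and 175 after the combination. Control replicate 2 lay below SFN replicate 1, so these groups overlapped although SFN was lower within each replicate number. Its log2 fold change with SFN was -0.56 (SE 0.072, adjusted p = 1.36e-04, edgeR).

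Lss (lanosterol synthase, Entrez 16987) folds the epoxide into lanosterol, the first sterol. It lies on chromosome 10, 76531588 to 76557138, plus strand. Lss was at 189, 136 and 185 CPM in control, 179.9, 118 and 166 after DAC, 118, 64.5 and 106 after SFN and 93.0, 67.6 and 105 after the combination. The control and SFN groups were separate, and the change of -0.85 on the log2 scale (SE 0.075, adjusted p = 8.77e-06, edgeR) was the furthest from 0 among the 9.

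Cyp51 (Entrez 13121), a cytochrome P450, removes the first methyl group of lanosterol. It lies on chromosome 5, 4081145 to 4104746, minus strand. Cyp51 was at 446, 306 and 378 CPM in control, 414, 252 and 330.4 after DAC, 284, 152 and 257 after SFN and 231, 158 and 248 after the combination. No SFN library reached the lowest control library. The log2 fold change with SFN was -0.74 (SE 0.084, adjusted p = 6.21e-05, edgeR).

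Msmo1, Nsdhl and Hsd17b7 act one after the other on the remaining pair of methyl groups, as an oxidase, a decarboxylating dehydrogenase and a keto reductase. Msmo1 (Entrez 66234, chromosome 8, 64718139 to 64733792, minus strand) was at 356, 243 and 292 CPM in control, 349, 202 and 273 after DAC, 223, 129 and 212 after SFN and 188, 125 and 209.5 after the combination. Nsdhl (Entrez 18194, chromosome X, 72918557 to 72958514, plus strand) was at 145, 103 and 121 CPM in control, 134, 79.0 and 102 after DAC, 86.0, 48.5 and 77.0 after SFN and 71.6, 49.3 and 79.5 after the combination. Both were lower with SFN, with groups that did not overlap and log2 changes of -0.69 (SE 0.089, adjusted p = 1.63e-04, edgeR) for Msmo1 and -0.83 (SE 0.092, adjusted p = 5.15e-05, edgeR) for Nsdhl. Hsd17b7 (Entrez 15490, chromosome 1, 169949535 to 169969241, minus strand) was at 48.1, 41.7 and 43.3 CPM in control, 48.2, 47.0 and 48.4 after DAC, 43.1, 38.1 and 43.2 after SFN and 53.7, 45.5 and 46.7 after the combination. Its control and SFN groups overlapped, and its highest and lowest of the 12 libraries differed 1.41-fold, against 1.65-fold for Dhcr7 and 2.58-fold to 2.99-fold for the other 7. Hsd17b7 is also known to act on steroid hormones.

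Sc5d inserts a double bond late in the route, and Dhcr7 reduces a double bond of the last intermediates to yield cholesterol. Sc5d (Entrez 235293, chromosome 9, 42251595 to 42264256, minus strand) was at 107, 76.2 and 95.8 CPM in control, 104, 65.8 and 83.9 after DAC, 70.3, 45.5 and 64.9 after SFN and 57.2, 41.5 and 70.9 after the combination. Dhcr7 (Entrez 13360, chromosome 7, 143823145 to 143848410, plus strand) was at 242, 218 and 209 CPM in control, 231, 205 and 212 after DAC, 201, 147 and 178 after SFN and 188, 162 and 178 after the combination. The control and SFN groups were separate for both. The log2 fold change with SFN was -0.64 (SE 0.090, adjusted p = 3.46e-04, edgeR) for Sc5d and -0.35 (SE 0.065, adjusted p = 0.00229, edgeR) for Dhcr7. Control and SFN libraries did not overlap for 7 of the 9 members, against 20.8% of all genes tested in either direction and 9.93% with SFN lower.

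**Figure D1:**
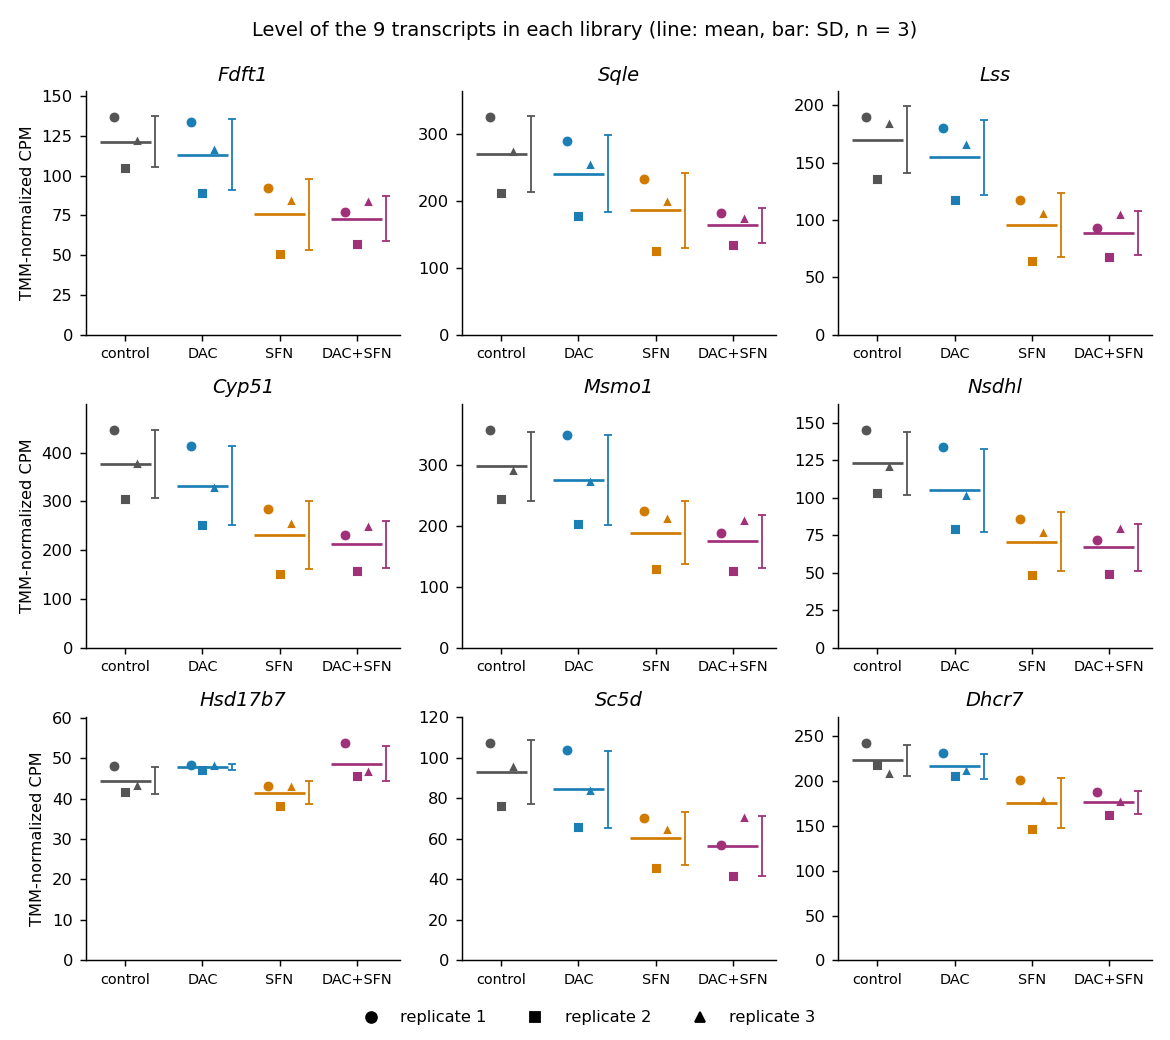
TMM-normalized CPM of the 9 transcripts in each of the 12 libraries, with 1 panel per gene, marker shape for the replicate number, a line for the group mean and a bar for the SD (n = 3). For every gene except Hsd17b7 the SFN and DAC+SFN means lay below those of control and DAC, and replicate 2 held the lowest library of all 9 genes.

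The promoters are shown because 8 of the members moved together and 1 did not. RefSeq windows on GRCm38.p6 matched 7 of the 9 members by symbol, and not Fdft1 or Sqle. The 150 bases before the RefSeq start are printed 5′ to 3′ on the strand of the gene for 4 members that were lower with SFN and for Hsd17b7, with capitals marking CCAAT boxes (CCAAT or ATTGG), GC boxes (GGGCGG or CCGCCC) and E-boxes (CACGTG). These motifs do not contain one another. The windows are chr10:76531455-76531604 for Lss, chr5:4104698-4104847 (minus strand) for Cyp51, chrX:72918371-72918520 for Nsdhl, chr7:143823017-143823166 for Dhcr7 and chr1:169969206-169969355 (minus strand) for Hsd17b7.
Lss: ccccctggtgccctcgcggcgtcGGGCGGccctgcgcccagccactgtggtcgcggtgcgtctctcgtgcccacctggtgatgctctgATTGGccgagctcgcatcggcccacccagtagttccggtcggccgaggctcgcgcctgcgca
Cyp51: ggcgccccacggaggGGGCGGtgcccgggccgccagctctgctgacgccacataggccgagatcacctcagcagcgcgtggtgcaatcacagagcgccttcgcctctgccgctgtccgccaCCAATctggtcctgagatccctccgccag
Nsdhl: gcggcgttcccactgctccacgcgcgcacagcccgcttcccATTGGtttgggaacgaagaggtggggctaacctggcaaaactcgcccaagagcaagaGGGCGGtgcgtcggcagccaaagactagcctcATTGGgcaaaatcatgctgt
Dhcr7: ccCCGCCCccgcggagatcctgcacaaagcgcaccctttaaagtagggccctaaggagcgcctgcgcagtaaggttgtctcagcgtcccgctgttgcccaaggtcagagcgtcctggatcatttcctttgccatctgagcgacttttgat
Hsd17b7: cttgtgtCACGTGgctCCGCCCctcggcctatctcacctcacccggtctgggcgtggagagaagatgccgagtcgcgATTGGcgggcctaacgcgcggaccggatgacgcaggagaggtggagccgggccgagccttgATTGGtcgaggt
The outermost GENCODE start of Lss, Cyp51, Dhcr7 and Hsd17b7 falls inside the window shown. A CCAAT box was found in 6 of the 7 matched windows, all but that of Dhcr7, which has 3 RefSeq windows of which the one nearest the GENCODE start is shown. Another of the Dhcr7 windows holds CCAAT boxes and a GC box within the same distance of its own start. The share of all 32851 promoter windows of the same length with a CCAAT box was 24.5%. A GC box was in the windows of Lss, Cyp51, Msmo1, Nsdhl, Hsd17b7 and Dhcr7 (28.6% of all windows), and an E-box in those of Hsd17b7 and Sc5d (4.3% of all windows). The letters TCACNCCAC, a core of sterol-response elements searched on both strands, were in none of the 7 windows and in 0.639% of all windows. That says only that these letters are not in these stretches. The window of Hsd17b7, the member that did not pass the test with SFN, held both a CCAAT box and a GC box, as did those of Lss, Cyp51 and Nsdhl.

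With DAC as a single treatment, 0 of the 9 members were called against control (edgeR), while 0.18% of all genes were called and 3 members had an unadjusted p-value under 0.05, as 10.1% of all genes did. DESeq2's Wald test also called 0. Log2 fold changes were -0.25 for Nsdhl (95% interval -0.44 to -0.054), -0.20 for Cyp51 (-0.37 to -0.016), -0.17 for Sqle (-0.33 to -0.022) and 0.11 for Hsd17b7 (-0.030 to 0.25). When only the control and DAC libraries were fitted, Sqle, Cyp51 and Nsdhl were called lower. The shares above belong to the fit of all 12 libraries, and the share of all genes called in the smaller fit is not given here. The 95% intervals of the 9 together spanned -0.44 to 0.25.

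The combination treatment lowered 8 members against control, all but Hsd17b7, where 31.6% of all genes were called and 14.7% were called lower. The comparison shares its control libraries with those of the single treatments. The log2 fold changes with SFN and with DAC+SFN were -0.85 and -0.95 for Lss, -0.83 and -0.89 for Nsdhl, -0.74 and -0.84 for Cyp51, and -0.35 and -0.34 for Dhcr7. All 8 groups were separate from control, against 29.4% of genes tested in either direction and 14.3% with the combination lower. Hsd17b7 had a log2 fold change of 0.13 (adjusted p = 0.143, edgeR). No member changed more than 2-fold, against 2.66% of all genes. Without the replicate block, 2 members were called.

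Against DAC alone, the combination lowered 8 members, all but Hsd17b7, from a log2 fold change of -0.30 for Dhcr7 to -0.80 for Lss, where 16.1% of all genes were called and 6.6% were called lower. Without replicate 1, 5 of the 9 were called. Without the replicate block, 0 were called. Against SFN alone, 0 members were called by edgeR or by DESeq2, 1.61% of all genes were, and 1 member (Hsd17b7) had an unadjusted p-value under 0.05, as 17.8% of all genes did. Hsd17b7 was at 43.1, 38.1 and 43.2 CPM with SFN and 53.7, 45.5 and 46.7 CPM with DAC+SFN in replicates 1, 2 and 3, a log2 fold change of 0.23 (95% interval 0.089 to 0.37, adjusted p = 0.0839, edgeR). The SFN and DAC+SFN groups of Hsd17b7 did not overlap, as for 12.1% of all genes. Without DAC+SFN replicate 3, 2 members were called in opposite directions, Hsd17b7 (higher) and Sc5d (lower).

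The interaction of DAC and SFN was called for 0 of the 9 members and for 0% of all genes by edgeR, with 0 members (5.87% of all genes) at an unadjusted p-value under 0.05 and 0 members by DESeq2. The interaction estimates ran from 0.024 for Sqle (95% interval -0.19 to 0.24) to 0.19 for Nsdhl (-0.093 to 0.47). Averaged over DAC, the SFN effect lowered 8 members, from -0.32 for Dhcr7 to -0.83 for Lss on the log2 scale, where 29.6% of all genes were called. Averaged over SFN, DAC raised 1 member, Hsd17b7, by 0.17 on the log2 scale (SE 0.046, adjusted p = 0.0482, edgeR), where 5.22% of all genes were called and 3.07% were called higher. That call was lost in 13 of 15 fits that left out libraries and without the replicate block. It was also lost with DESeq2's Wald test and with no filter on low counts, where Sqle was called lower instead. Without DAC+SFN replicate 3, 5 members were called, 4 of them lower.

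**Figure D2:**
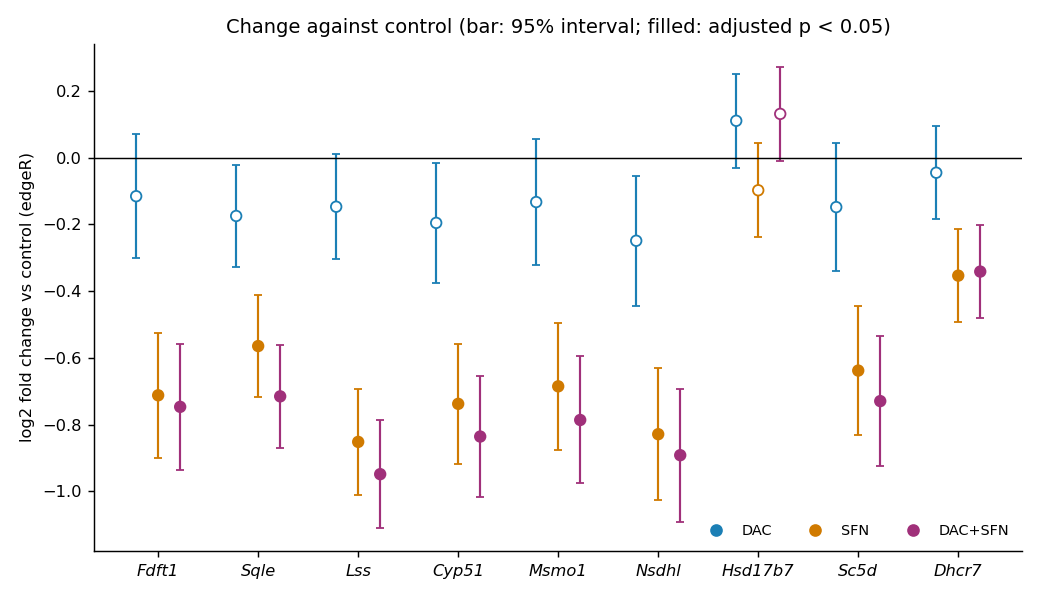
Log2 fold changes of the 9 transcripts against control after DAC, SFN and DAC+SFN, with 95% intervals as bars and filled points for an adjusted p-value under 0.05. The filled points are the 8 members that fell with SFN and with DAC+SFN, and no DAC point is filled.

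The members also differed between replicate numbers. An F-test over the replicate numbers called 8 of the 9 members, all but Hsd17b7, and 33.9% of all genes. The log2 difference of replicate 2 from replicate 1 was -0.60 for Lss (adjusted p = 1.62e-05), -0.68 for Msmo1 (adjusted p = 4.33e-05), -0.68 for Cyp51 and -0.25 for Dhcr7 (edgeR). Without replicate 2, 0 members differed between the remaining numbers. Library numbers follow the replicate numbers in the labels, so a batch in library preparation and the replicate cannot be told apart.

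Inside each replicate number, both SFN libraries (SFN and DAC+SFN) lay below both others for 8 members in all 3 numbers, an order that 6.61% of all genes tested showed. For Lss, the log2 difference between SFN and control was -0.69, -1.08 and -0.80 in replicates 1, 2 and 3, and between DAC+SFN and DAC it was -0.95, -0.80 and -0.66. For Hsd17b7 the same differences were -0.16, -0.13 and -0.0057 and 0.15, -0.048 and -0.050. The SFN difference against control was largest in replicate 2 for the 8 members that fell, and the DAC+SFN difference against DAC was smallest in replicate 3 for 7 of them, all but Sqle.

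**Figure D3:**
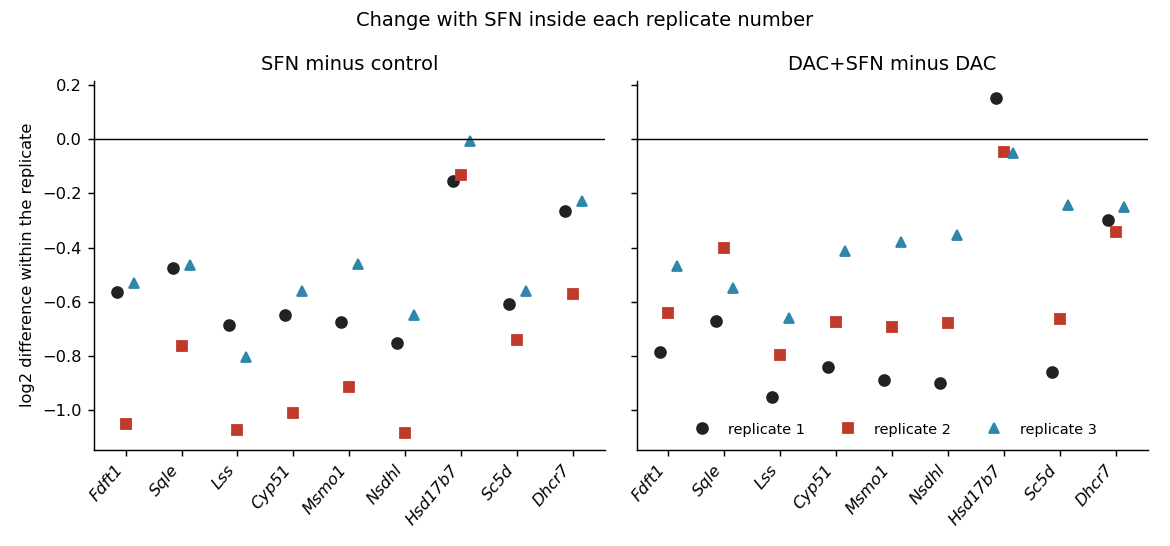
Log2 differences of the 9 transcripts within each replicate number, for SFN minus control (left) and DAC+SFN minus DAC (right), with marker shape and colour for the replicate. All points of the 8 members that fell lie below 0, and those of Hsd17b7 lie near 0.

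The genes of the hypoxia response differed between replicate numbers as well. Of 10 tested, 9 were called, against 33.9% of all genes. The median difference of replicate 2 from replicate 1 was -0.67 on the log2 scale. The summed level of the 10 genes was 277 to 780 CPM in control, 320 to 670 CPM with DAC, 336 to 519 CPM with SFN and 355 to 423 CPM with DAC+SFN. With SFN averaged over DAC, 2 of the 10 were lower and 1 was higher, where 13.5% of all genes were called lower and 16.1% higher. Ndrg1 fell (-0.70) and Pfkfb3 rose (0.17). Egln3 (-0.19) and Pdk1 (-0.43) did not pass the test. The part of this in the fall of the 9 transcripts was not tested.

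Levels can be compared between genes only per length. Per kb of the longest principal transcript, the control level was 145 ± 27.7 CPM for Msmo1 (SD, n = 3), 98.2 ± 20.6 for Sqle, 95.8 ± 17.8 for Cyp51, 79.1 ± 6.09 for Dhcr7 and 56.7 ± 9.70 for Nsdhl. It was 36.4 ± 6.32 CPM per kb for Lss, 32.8 ± 4.31 for Fdft1, 19.4 ± 3.28 for Sc5d and 9.62 ± 0.714 for Hsd17b7. In this order, Sqle and Cyp51, Cyp51 and Dhcr7, and Lss and Fdft1 overlapped between neighbours, and the other neighbours did not. The order depends on the length used. Per kb of all exon bases of a gene, the control means were 85.3 CPM for Cyp51, 48.8 for Sqle, 48.4 for Msmo1, 43.1 for Nsdhl, 38.3 for Dhcr7, 28.7 for Fdft1, 19.1 for Sc5d, 15.8 for Lss and 8.70 for Hsd17b7, so Msmo1 was no longer first and Lss lay below Sc5d. Hsd17b7 was last by both lengths. The 9 transcripts together held 0.142% to 0.200% of all counts in control, 0.122% to 0.190% with DAC, 0.0778% to 0.134% with SFN and 0.0824% to 0.124% with DAC+SFN.

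Most other genes of the route fell with SFN as well. Averaged over DAC, 8 of 9 mevalonate genes were lower (median log2 fold change -0.69) and all 5 of the other enzymes after squalene were lower (median -0.35), while the median over all genes tested was 0.0019 and 13.5% of all genes were called lower. In the mevalonate list, Pmvk (-0.81), Fdps (-0.85), Mvd (-0.74) and Hmgcs1 (-0.69), which makes HMG-CoA, had the smallest p-values, and Ggps1 (-0.13), which leads away from sterols, was the gene that did not pass the test. After squalene, 0610007P14Rik had a log2 fold change of -0.35, the isomerase Ebp one of -0.25 and the reductase Tm7sf2 one of -0.39. Lists were compared with all genes by counts and medians only.

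**Figure D4:**
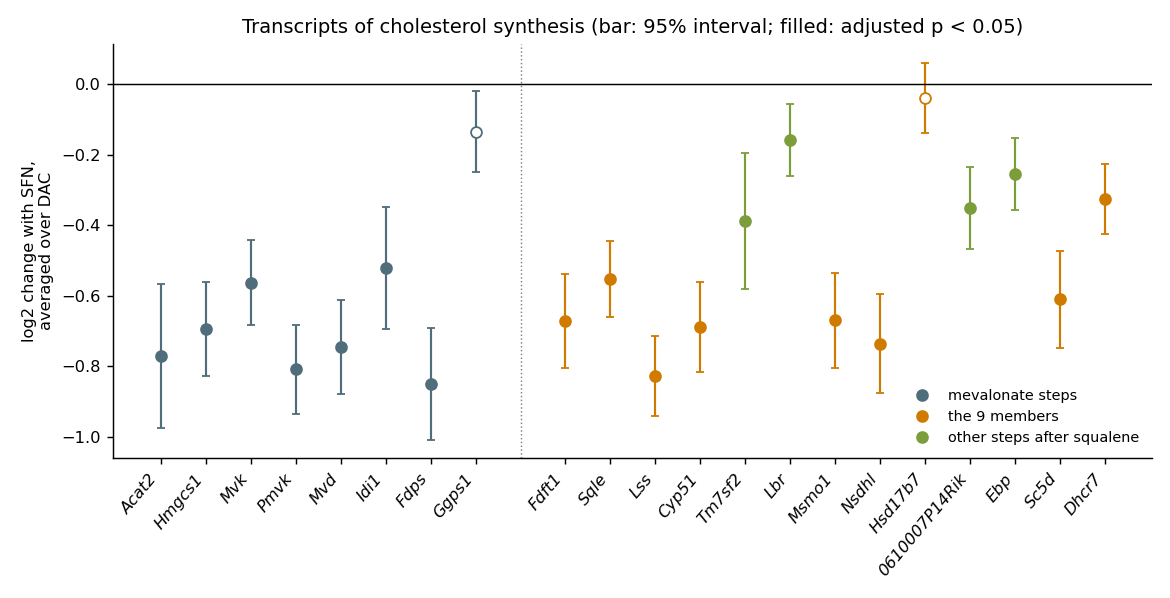
Log2 change with SFN averaged over DAC for 21 transcripts of cholesterol synthesis in the order of the route, with 95% intervals as bars and filled points for an adjusted p-value under 0.05. All points except Ggps1 and Hsd17b7 are filled and below 0.

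Of the 12 genes of SREBP regulation and cholesterol uptake, 8 were lower with SFN averaged over DAC. In this comparison 13.5% of all genes were called lower and 16.1% higher. Insig1 fell from 270.0 ± 54.7 CPM (SD, n = 3) in control to 159 ± 50.9 with SFN (log2 fold change averaged over DAC -0.77), and Srebf2, which encodes SREBP2, changed by -0.42. Among 5 tested genes of cholesterol efflux and its LXR control, 2 were higher and 1 was lower. Abca1, which exports cholesterol, rose by 0.29, Soat1, which esterifies it, rose by 0.17, and Lpcat3 fell (-0.30). Of 8 genes of fatty acid synthesis, 6 were lower, among them Scd1 (-0.53), Fads1 (-0.49), Acly (-0.35) and Fads2 (-0.39). Of the 4 proteins that pass electrons to Sqle, Cyp51, Msmo1 and Sc5d, none was lower. Por (0.054), Cyb5a (0.043) and Cyb5b (-0.042) did not pass the test, and Cyb5r3 rose (0.30).

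Targets of NRF2, the factor that SFN is known to activate, moved the other way. All 8 rose with SFN averaged over DAC, where 16.1% of all genes were called higher, with a median log2 fold change of 0.88. Nqo1 went from 8.42 ± 0.851 CPM in control to 33.9 ± 1.10 with SFN (SD, n = 3). Srxn1 rose by 1.28, Gclm by 1.07 and Txnrd1 by 0.73. Of the 7 melanocytic markers 1 was higher and 1 lower, and of 2 fibroblast markers tested 1 was lower. Of all genes, 29.6% were called in either direction.

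Across the 12 libraries, with replicate means removed, each member correlated with the mean of the others at a Pearson r of 0.947 to 0.995, except Hsd17b7 at 0.042. The 36 member pairs had a median r of 0.969 and a lowest of -0.047. These points share treatment groups and libraries. Among the 8 genes most like the mean of the members were Slc38a2 (0.989), an amino acid transporter, Hmgcs1 (0.989), Insig1 (0.988), Herpud1 (0.987), a membrane protein of endoplasmic reticulum degradation, Rundc3b (0.985), Asns (0.983), which makes asparagine, and Cars (0.982), a cysteinyl-tRNA synthetase.

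For 3 members, exons overlap those of a gene on the opposite strand. Fdft1 shares 774 exon bases (18.3% of its exon bases) with Ctsb, a lysosomal protease, which rose with SFN (log2 fold change 0.69, adjusted p = 6.27e-06, edgeR), from 600.1 ± 136 CPM in control to 974 ± 248 CPM (SD, n = 3). Cyp51 shares 166 exon bases with Akap9, whose log2 fold change with SFN was 0.070 (adjusted p = 0.571, edgeR). Lss shares 381 exon bases with 4930483K19Rik, which had 0 counts in every library. The study used a stranded library kit, but the strand setting of the counting is not given in the sources used here. How reads in these stretches were assigned is therefore not known. A processed pseudogene, Gm6781, matches 1249 bases of Fdft1 at 97.4% identity.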

How the data were processed

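RNA from B16F10 cells was sequenced in 12 libraries. Per the study's methods and the submitters' processing notes, reads were checked with FastQC 0.11.7, trimmed with Trimmomatic 0.38, aligned to mm10 with TopHat2 2.1.1 and counted with HTSeq in Blast2GO, and uniquely aligned reads were kept. The authors deposited raw read counts per gene symbol, with no normalization. The annotation and strand setting are not given in the sources used here.

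A gene was kept when 3 or more of the 12 libraries had 1 CPM or more (11638 of 24421, all 9 members), scaled by TMM and tested with edgeR 4.0.16 (glmQLFTest, legacy fit) in R 4.3.3. The 12 libraries were fitted together, blocked by replicate number, since the study corrects for a batch that it does not name, and p-values were adjusted by Benjamini-Hochberg over all genes tested. Same-numbered libraries deviated together from their group means (r = 0.544 on average, 0.27 to 0.732, 18 pairs), against -0.267 on average for different numbers. Replicates were not copies (chi-square 13.6 to 37.5 per gene). Fold changes carry a prior count of 0.125, and differences within a replicate one of 2. Standard errors (SE) were obtained from the F statistic. Two-sided tests were used.

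The members, lists, motifs and tests were chosen with earlier results of these data known. All 9 members were named in each comparison, up to 4 genes per list by the smallest p-value of the SFN effect averaged over DAC (hypoxia genes by the replicate test), and 8 genes by correlation. Genes outside this rule are named because of overlapping exons or their role. The values of a few list genes are not reported here. Positions and transcripts came from GENCODE M21 and promoters from RefSeq. Alternatives were DESeq2 1.42.0, its size factors, the version 4 and robust fits, other filters, a prior count of 2, no replicate block, the compared groups only, a fold above 2 and leaving out libraries. In simulated data for SFN against control, 23 of 50 changes of 1.25-fold, 45 of 50 of 1.5-fold and 49 of 50 of 2-fold were recovered among 11576 genes. P-values rest on the spread among these libraries that remains after the replicate block.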

Additional observations from a re-analysis of the deposited data

Results flagged for a closer look

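Acly, which makes acetyl-CoA for sterol and fatty acid synthesis, had log2 fold changes of opposite sign for DAC. It was -0.098 for DAC against control and 0.062 for DAC+SFN against SFN, and each of the 3 replicates moved in the direction of its comparison. The difference itself, which is the interaction of DAC and SFN, was 0.16 (SE 0.070, adjusted p = 0.850, edgeR) and did not pass the test. Among 41 genes examined, it was the one with this pattern.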

How the results depend on the processing

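The number of members called was the same with DESeq2's size factors or Wald test, the version 4 fit, the robust fit and both other filters in every comparison. The members called were the same as well, except that for DAC averaged over SFN the Wald test and no filter on low counts called Sqle (lower) in place of Hsd17b7 (higher), as did the fit without SFN replicate 2. Without the replicate block (the pairing of libraries by number), 0 members were called for SFN against control, 2 for DAC+SFN against control, 0 for DAC+SFN against DAC and 0 for DAC averaged over SFN. Over all genes that setting called 23 in place of 1619 for SFN against control, 1201 in place of 3683 for DAC+SFN against control, 20 in place of 1879 for DAC+SFN against DAC and 1052 in place of 3443 for SFN averaged over DAC. For the last, 7 members in place of 8 were called, Sqle being lost. With a fold above 2, 0 members were called for SFN against control, DAC+SFN against control, DAC+SFN against DAC, SFN averaged over DAC and DAC averaged over SFN. With the compared groups only, 3 members were called for DAC against control and 1 (Hsd17b7) for DAC+SFN against SFN. The shares of all genes called in these smaller fits are not given here. With libraries left out, the members called ranged from 7 to 8 for SFN against control, 0 to 0 for DAC against control, 8 to 8 for DAC+SFN against control, 5 to 8 for DAC+SFN against DAC (5 without replicate 1), 0 to 2 for DAC+SFN against SFN (2 without DAC+SFN replicate 3), 0 to 0 for the interaction, 8 to 8 for SFN averaged over DAC, 0 to 5 for DAC averaged over SFN (5 without DAC+SFN replicate 3) and 0 to 9 between replicate numbers (0 without replicate 2). The cause was not tested. Log2 fold changes that changed sign were not called. With libraries left out, for DAC+SFN against SFN they ran from -0.16 to 0.077 for Fdft1, -0.19 to 0.028 for Lss, -0.20 to 0.0018 for Cyp51, -0.19 to 0.037 for Nsdhl, -0.26 to 0.017 for Sc5d and -0.077 to 0.069 for Dhcr7, for interaction of DAC and SFN they ran from -0.080 to 0.24 for Fdft1, -0.14 to 0.14 for Sqle, -0.062 to 0.21 for Lss, -0.022 to 0.24 for Cyp51, -0.094 to 0.16 for Msmo1, -0.11 to 0.21 for Sc5d and -0.031 to 0.11 for Dhcr7, for DAC+SFN against DAC they ran from -0.048 to 0.056 for Hsd17b7, for DAC against control they ran from -0.097 to 0.014 for Dhcr7, for DAC effect averaged over SFN they ran from -0.064 to 0.017 for Dhcr7. The Sqle interaction was -0.018 without the replicate block, and Dhcr7 for DAC+SFN against SFN was -0.0022 with no filter on low counts. Each member had at least 737 counts per library, and 3 replicates per group limit the precision.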
